A study of Polistes dominula with 96 samples.

Results

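The 100 genes described here were among those with the most counts in the worker brain of the paper wasp Polistes dominula. In this primitively eusocial wasp, females of similar form live either as egg-laying queens or as helping workers. The genes were chosen by level among the 11140 named genes, leaving aside the genes dropped below. These 100 had the highest median CPM in 12 workers from queenright control nests. CPM is counts scaled to library size, here with TMM, a library scaling that assumes most genes do not differ. A vitellogenin-like gene (LOC107073917) and a gene for a proteasome regulatory subunit (LOC107074200) were dropped before the choice. Counts were not divided by gene length, so a high rank means many counts and not necessarily many molecules.

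The study sequenced brain RNA from 96 individually profiled females of 34 nests kept in the laboratory. There were 26 queens, whose ages the labels do not give and which the study describes as overwintered foundresses, months old, 24 individuals taken 3 days after their nest lost its queen (3 to 33 days old), 34 individuals taken 12 days after queen removal (3 to 28 days old), and 12 workers of control nests (1 to 23 days old). The queen removal individuals came from 18 nests and the queens headed 26 nests, 12 of which also gave queen removal individuals and 10 of which also gave a control worker. The queen group thus pools queens taken off nests that lost their queen with queens of other nests. The study sampled control nests 3 or 12 days after a sham treatment. The labels give no day for control workers, which form a single group set against both days. The nest of a single wasp could not be matched with certainty, which touches the nest counts and the fits with nest. The control workers' levels chose the genes, so their levels are given as a description, and comparisons with control workers reuse libraries that the choice rests on. Comparisons of queens with queen removal individuals, of day 12 with day 3, and across ages of queen removal individuals contrast none of those libraries, although control workers add to the estimate of spread in the first and second of these.

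As background, an insect brain spends most of its energy on restoring ion gradients after electrical and synaptic signalling, so transcripts for ATP production, ion pumps, synaptic proteins and second messenger enzymes are prominent in it. Glial cells clear transmitters from the synapse, recycle glutamate into glutamine and handle lipids. A brain taken from a head capsule can also carry retinal tissue and muscle fibres, whose contractile transcripts are very abundant where they occur.

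Of the 100 genes, 69 had an informative symbol or product name and 31 had none. By function, 14 were placed under signalling and synapse, 11 under energy metabolism, 10 under transport and glia, 5 under protein folding and turnover, 5 under muscle contraction, 4 under translation and RNA, 4 under the cytoskeleton, 1 under photoreceptors and 15 under other named genes. No cytosolic ribosomal protein gene was among them: the first, RpL4, held rank 202.

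The gene with the most counts was LOC107073824, named as a homolog of a poly(U)-specific endoribonuclease, an RNA-cutting enzyme, with 4928 to 16259 CPM in control workers and a median of 10080 CPM. The unnamed LOC107073244 came next, with a median of 6612 CPM. Hsc70-4, the constitutive heat shock cognate chaperone that folds proteins and uncoats synaptic vesicles, had a median of 6364 CPM, and Ant, the carrier that exchanges ADP for ATP across the inner mitochondrial membrane, had 6269 CPM. An aminopeptidase N, a peptide-trimming membrane enzyme (LOC107071682), followed at 4794 CPM. The other genes of the first 10 were the uncharacterised LOC107074403 (4377 CPM), a PAL2-like amidating lyase (LOC107065522, 4111 CPM), an enzyme of the kind that finishes amidated neuropeptides, the uncharacterised LOC107065036 (4050 CPM), the iron carrier transferrin Tsf1 (4022 CPM) and the unnamed LOC107064111 (3380 CPM). The plot of levels by rank shows that the medians fell steeply over the first ranks and slowly after them.

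**Figure D1:**
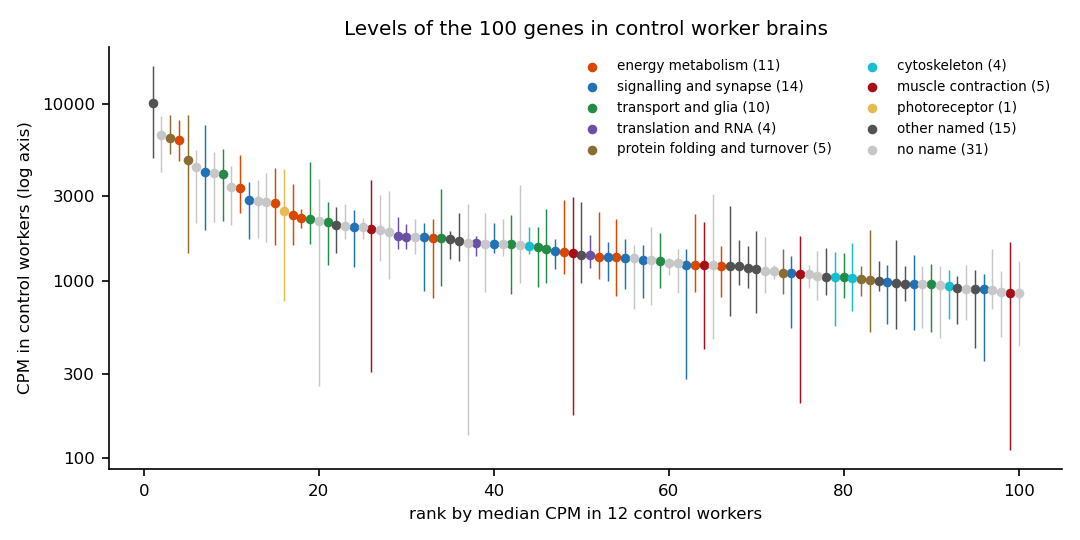
Levels of the 100 genes in the brains of 12 control workers, with rank by median CPM on the horizontal axis and CPM on a logarithmic vertical axis; points are medians coloured by kind of gene and vertical lines run from the lowest to the highest worker. Medians ran between 850 CPM at rank 100 and 10080 CPM at rank 1, and genes of different kinds were interleaved along the ranks.

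The edge of the list was narrow. The last genes inside it were the unnamed LOC107072419 (861 CPM), tropomyosin Tm2 (857 CPM) and the unnamed LOC107070369 (850 CPM), and the first outside it were LOC107070215 (829 CPM), A4 (827 CPM) and LOC107068965 (822 CPM). Ranking by the mean of control workers kept 96 of the 100 genes, ranking by the median of all 96 libraries kept 92, ranking by the median of queen removal individuals kept 91 and ranking by the median of queens kept 90.

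The 100 genes together took a similar share of all counts in every group. It was 18.3% to 23.0% in queens with a median of 20.4%, 18.0% to 22.1% on day 3 with a median of 20.8%, 16.5% to 21.7% on day 12 with a median of 20.0%, and 17.9% to 20.9% in control workers with a median of 19.4%. The groups overlapped over most of their ranges. In control workers the first gene alone took a median of 1.05% of counts, the first 10 genes 5.53% and the first 50 genes 13.7%. The dropped vitellogenin-like gene took a median of 0.387% in queens, 0.221% on day 3, 0.185% on day 12 and 0.175% in control workers, and the dropped proteasome subunit gene took 0.00783% in queens, 0.0413% on day 3, 0.0242% on day 12 and 0.0567% in control workers.

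**Figure D2:**
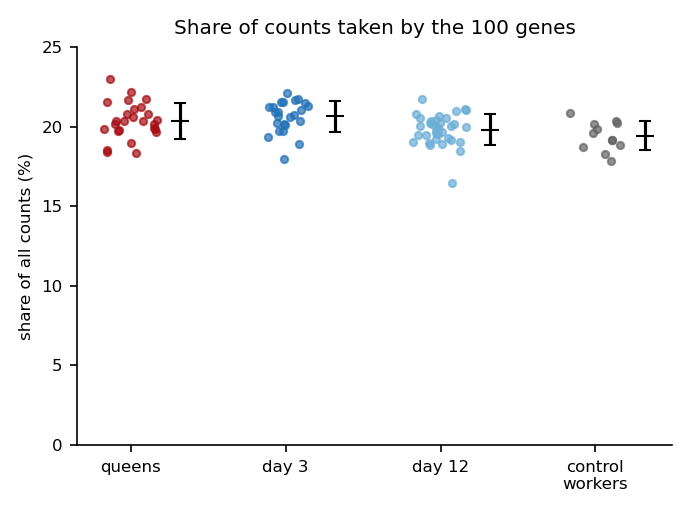
Share of all counts taken by the 100 genes, in percent, in 26 queens, 24 day 3 and 34 day 12 queen removal individuals and 12 control workers; each point is a library, and the bar gives the mean and SD of its group. All libraries lay between 16.5% and 23.0%, and the 4 groups overlapped.

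The kinds of gene divided this share unevenly. The 14 signalling and synapse genes took a median of 2.62% in queens, 2.05% on day 3, 2.01% on day 12 and 2.33% in control workers. The 11 energy metabolism genes took 2.56% in queens, 2.90% on day 3, 2.73% on day 12 and 2.52% in control workers. The 5 muscle contraction genes took 1.12% in queens, 1.04% on day 3, 0.924% on day 12 and 0.662% in control workers. Within groups these 5 ran between 0.180% and 2.65% over queens and between 0.135% and 1.24% over control workers. The 4 translation and RNA genes took 0.764% in queens, 0.695% on day 3, 0.708% on day 12 and 0.681% in control workers. These shares are sums over genes and were not tested.

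How steady a gene was between workers varied widely within the list. The coefficient of variation (SD over mean of CPM in the 12 control workers) ran between 0.062 and 0.590 with a median of 0.224, against medians of 0.194 for the genes ranked 101 to 500 and 0.136 for those ranked 1001 to 5000. The steadiest members were the unnamed LOC107073160 (0.062) and LOC107065878 (0.067) and Nc73EF (0.085), a subunit of the 2-oxoglutarate dehydrogenase complex of the citric acid cycle. The most variable were the unnamed LOC107073890 (0.590) and LOC107066399 (0.52), and Mlc2, a myosin light chain (0.48). Arr2, the arrestin that switches off activated rhodopsin in photoreceptors, had 10.2 to 8285 CPM in queens, 8.20 to 15039 CPM in queen removal individuals and 773 to 4286 CPM in control workers, with no call in any comparison. The summed CPM of photoreceptor markers was 195 to 17287 in queens, 217 to 31882 on day 3, 223 to 11840 on day 12 and 1347 to 6873 in control workers, a spread of the same kind whose part in the level of Arr2 was not tested.

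Queens and queen removal individuals differed in 30 of the 100 genes, 16 higher and 14 lower in queens (edgeR quasi-likelihood test, adjusted p under 0.05), where the same test called 30.2% of the 10794 genes tested (15.6% higher and 14.5% lower), so the list was called about as often as genes at large. Calls upward included cAMP and cytoskeletal signalling genes, a PAL2-like enzyme and translation factors. Calls downward included Gs2, apolpp and mitochondrial genes. Against control workers, 21 of the 100 genes passed, 16 higher and 5 lower in queens, where 22.6% of all genes tested passed (12.2% higher and 10.4% lower). The tests did not pair wasps by nest. Queens enter both comparisons, so the values of each are given side by side and not as independent evidence.

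The gene dnc encodes a phosphodiesterase that breaks down cAMP and is known in Drosophila for its part in olfactory learning. It had 1649 to 3152 CPM in queens with a median of 2287 CPM, 1146 to 2130 CPM on day 3 with a median of 1607 CPM, 1087 to 2379 CPM on day 12 with a median of 1605 CPM, and 875 to 2122 CPM in control workers with a median of 1758 CPM. The lowest queen was above the middle day 3 and day 12 individuals and the middle queen was above every control worker, although the ranges overlapped. On the log2 scale dnc was higher in queens by 0.49 ± 0.06 (SE) than in queen removal individuals (adjusted p = 1.61e-10) and by 0.47 ± 0.09 than in control workers (adjusted p = 7.63e-05). The PAL2-like LOC107065522 had 1817 to 11956 CPM in queens with a median of 7088 CPM, medians of 3548 CPM on day 3 and 4124 CPM on day 12, and 1948 to 7616 CPM in control workers with a median of 4111 CPM. Its lowest queen lay at the bottom of the other groups' ranges, while the middle queen was close to the highest control worker. It was higher in queens by 0.81 ± 0.11 than in queen removal individuals (adjusted p = 1.42e-08) and by 0.72 ± 0.18 than in control workers (adjusted p = 0.0016).

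The gene sif, a guanine nucleotide exchange factor for Rac that acts at synapses in Drosophila, had 541 to 1559 CPM in queens with a median of 1039 CPM, against medians of 653 CPM on day 3, 688 CPM on day 12 and 965 CPM in control workers. It was higher in queens by 0.60 ± 0.10 than in queen removal individuals (adjusted p = 4.82e-07), while the difference of 0.20 ± 0.15 from control workers did not pass (adjusted p = 0.329). Hasp, known in Drosophila as a secreted protein of the synaptic cleft, had medians of 1268 CPM in queens, 974 CPM on day 3, 994 CPM on day 12 and 908 CPM in control workers. The queens' difference was 0.39 ± 0.07 from queen removal individuals (adjusted p = 1.88e-05) and 0.56 ± 0.11 from control workers (adjusted p = 1.19e-04). Rim, a scaffold of the presynaptic active zone, was higher in queens by 0.28 ± 0.08 than in queen removal individuals (adjusted p = 0.00736) and had a difference of 0.08 ± 0.13 from control workers (adjusted p = 0.707).

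The translation factors differed by smaller amounts. The RNA helicase eIF4A, which unwinds messenger RNA for initiation, had 1708 to 3291 CPM in queens with a median of 2265 CPM, medians of 1869 CPM on day 3 and 1873 CPM on day 12, and 1519 to 2106 CPM in control workers with a median of 1775 CPM. The middle queen was above every control worker, and the ranges overlapped. It was higher in queens by 0.27 ± 0.04 than in queen removal individuals (adjusted p = 6.06e-07) and by 0.36 ± 0.07 than in control workers (adjusted p = 1.90e-05). The elongation factor eEF2 was higher in queens by 0.15 ± 0.04 than in queen removal individuals (adjusted p = 0.00262) and by 0.26 ± 0.06 than in control workers (adjusted p = 9.16e-04), and the poly(A)-binding protein pAbp by 0.24 ± 0.08 than in control workers (adjusted p = 0.0251). The difference of pAbp from queen removal individuals was 0.06 ± 0.06 (adjusted p = 0.398).

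Of the 10 transport and glia genes, Gs2 and apolpp were lower in queens in both comparisons and 1, Ndae1, was higher in queens than in queen removal individuals. Over all genes tested, 30.2% passed against queen removal individuals and 22.6% against control workers, so this kind was called about as often as genes at large. The other members of this kind did not pass, and the median log2 difference of the 10 was -0.03 from queen removal individuals and -0.04 from control workers. Gs2, the glutamine synthetase with which glia turn glutamate into glutamine, had 880 to 2547 CPM in queens with a median of 1528 CPM, 1213 to 4603 CPM on day 3 with a median of 2146 CPM, 1019 to 5124 CPM on day 12 with a median of 2004 CPM, and 1606 to 4654 CPM in control workers with a median of 2240 CPM. The middle queen was below every control worker, and the ranges overlapped. Its log2 difference was -0.51 ± 0.11 between queens and queen removal individuals (adjusted p = 1.07e-04) and -0.76 ± 0.15 between queens and control workers (adjusted p = 8.75e-05). Of the other 5 glia markers, repo, a glial identity factor in Drosophila, had a median of 316 CPM in queens, 371 CPM on day 3, 300.2 CPM on day 12 and 315 CPM in control workers, and moody, a receptor of the Drosophila blood-brain barrier, had 59.5 CPM in queens, 64.0 CPM on day 3, 58.1 CPM on day 12 and 55.95 CPM in control workers. The medians of both were thus slightly higher in queens than in control workers, as was that of Eaat1 (6.94 against 5.74 CPM). Those of Eaat2 (1403 against 1557 CPM) and Eaat-2 (587 against 813 CPM) were lower in queens. The summed CPM of the 6 glia markers, Gs2 among them, had a median of 3893 in queens, 4846 on day 3, 4444 on day 12 and 5075 in control workers. In whole brains, fewer cells of a type and less RNA per cell cannot be told apart.

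Apolipophorin apolpp, the protein of the lipid-carrying particle of insect blood, had 651 to 1920 CPM in queens with a median of 1180 CPM, 971 to 2620 CPM on day 3 with a median of 1539 CPM, 907 to 3174 CPM on day 12 with a median of 1696 CPM, and 1231 to 2794 CPM in control workers with a median of 2155 CPM. The middle queen was below every control worker, although the highest queens reached into the workers' range. Its log2 difference was -0.46 ± 0.10 between queens and queen removal individuals (adjusted p = 1.49e-04) and -0.72 ± 0.14 between queens and control workers (adjusted p = 5.78e-05). The fat body also makes this protein, and the summed CPM of 5 fat body and haemolymph markers, apolpp among them, was 2934 to 7313 in queens, 3950 to 18476 on day 3, 3225 to 9351 on day 12 and 3462 to 8512 in control workers. Only 2 of these 5 were above 0 in every library, and their part in the difference was not tested.

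The CD151 antigen-like gene LOC107067392, a tetraspanin membrane organiser, had 358 to 1154 CPM in queens with a median of 763 CPM, medians of 1170 CPM on day 3 and 912 CPM on day 12, and 657 to 1910 CPM in control workers with a median of 1165 CPM. Every queen was below the workers' median. Its log2 difference was -0.56 ± 0.10 between queens and queen removal individuals (adjusted p = 1.14e-05) and -0.64 ± 0.14 between queens and control workers (adjusted p = 6.08e-04).

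Further members were lower in queens. Scp2, a sarcoplasmic calcium-binding protein, had differences of -0.29 ± 0.07 from queen removal individuals (adjusted p = 0.00138) and -0.38 ± 0.10 from control workers (adjusted p = 0.00516). A peptidyl-prolyl cis-trans isomerase-like gene (LOC107070655), of a family of folding enzymes, differed by -0.24 ± 0.04 from queen removal individuals (adjusted p = 1.14e-05). The uncharacterised LOC107065038 differed by -0.44 ± 0.07 from queen removal individuals (adjusted p = 1.39e-06) and by -0.51 ± 0.11 from control workers (adjusted p = 1.57e-04).

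**Figure D3:**
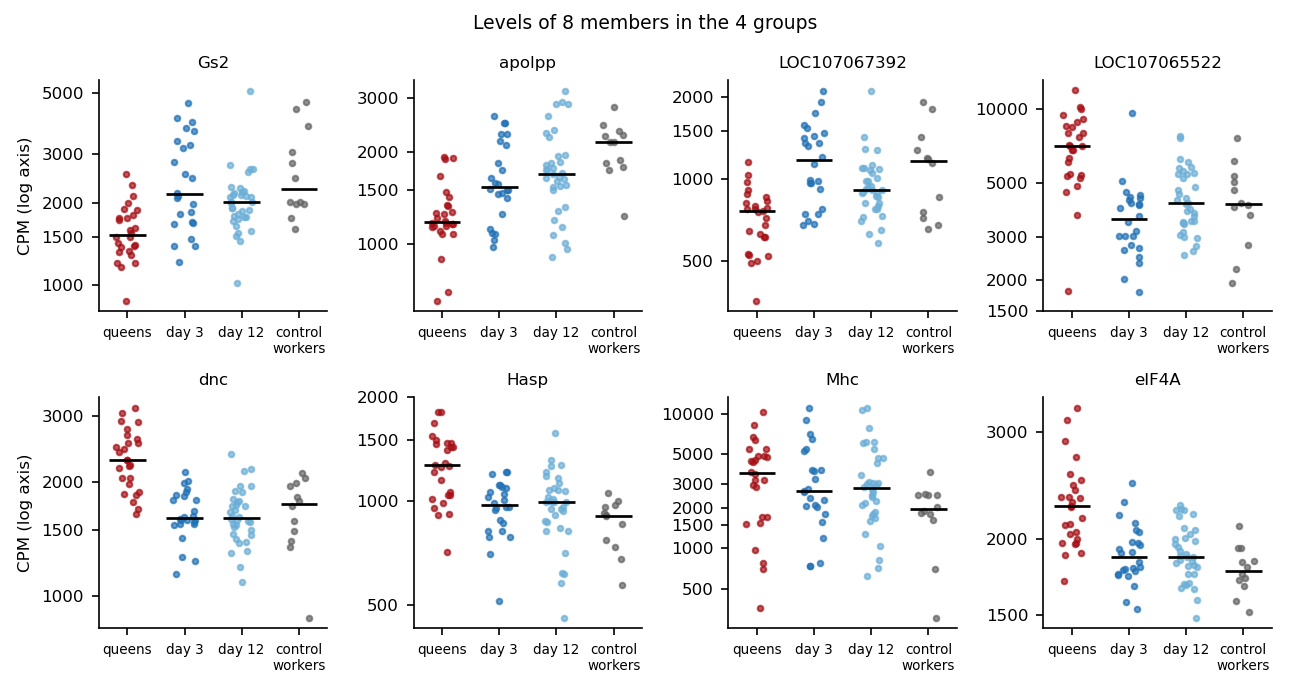
Levels of 8 of the 100 genes in CPM, on logarithmic vertical axes, in queens, day 3 and day 12 queen removal individuals and control workers; each point is a library and the horizontal line is the median. The medians of Gs2, apolpp and LOC107067392 were lowest in queens, those of LOC107065522, dnc, Hasp and eIF4A were highest in queens, and Mhc ran between 362 and 10344 CPM within queens.

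Of the 11 energy metabolism genes, 5 were lower in queens than in queen removal individuals and none was higher, where 14.5% of all genes were lower and 15.6% higher. The mitochondrial ATP synthase subunit alpha, blw, had 590 to 2078 CPM in queens with a median of 1065 CPM, 952 to 3837 CPM on day 3 with a median of 1419 CPM, 828 to 3211 CPM on day 12 with a median of 1292 CPM, and 869 to 2380 CPM in control workers with a median of 1225 CPM. Its difference was -0.43 ± 0.11 from queen removal individuals (adjusted p = 7.79e-04) and -0.35 ± 0.15 from control workers (adjusted p = 0.0831). The glycolytic enzyme Eno, enolase, differed by -0.30 ± 0.07 from queen removal individuals (adjusted p = 4.75e-04), and Argk1, the arginine kinase that buffers ATP in insect cells, by -0.31 ± 0.11 (adjusted p = 0.023). The other ATP synthase members did not pass: ATPsynC, the membrane ring subunit, had a difference of -0.24 ± 0.10 (adjusted p = 0.0655) and ATPsynbeta, the catalytic subunit, -0.20 ± 0.08 (adjusted p = 0.0557). Against control workers, where 12.2% of all genes were higher, 2 energy genes were higher in queens, the aldolase Ald1 by 0.41 ± 0.12 (adjusted p = 0.00573) and Nc73EF by 0.32 ± 0.08 (adjusted p = 0.00171).

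Queens were older than all other wasps, and the queen removal individuals included young wasps, so age and caste cannot be told apart in comparisons with queens. Set against the 23 queen removal individuals of over 20 days alone, queens differed in 11 of the 100 genes, 7 higher and 4 lower, where 15.5% of all genes passed. The calls upward held for LOC107065522 (0.68), dnc (0.54), sif (0.57), Hasp (0.30) and eIF4A (0.20), and those downward for Scp2 (-0.22), LOC107070655 (-0.19) and LOC107065038 (-0.26). In this comparison the differences of Gs2 (-0.13, adjusted p = 0.438), apolpp (-0.21, adjusted p = 0.146), LOC107067392 (-0.19, adjusted p = 0.245) and blw (-0.08, adjusted p = 0.632) did not pass. The queens were still the older wasps in this smaller comparison, which was chosen after the data were seen.

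Contractile genes varied widely between libraries. Mhc, the muscle myosin heavy chain, had 362 to 10344 CPM in queens with a median of 3655 CPM, 734 to 10966 CPM on day 3 with a median of 2648 CPM, 626 to 11102 CPM on day 12 with a median of 2822 CPM, and 305 to 3686 CPM in control workers with a median of 1968 CPM. High libraries occurred in each group but the control workers, and low libraries occurred in every group. It was higher in queens than in control workers by 0.94 ± 0.36 (adjusted p = 0.0494), as were Tm1 (0.89 ± 0.28, adjusted p = 0.0124) and Tm2 (0.88 ± 0.33, adjusted p = 0.0396), the tropomyosins of the thin filament. Troponin I, wupA, had a difference of 0.75 ± 0.31 (adjusted p = 0.063) and Mlc2 of 0.80 ± 0.35 (adjusted p = 0.0845). Between queens and queen removal individuals none of the 5 passed.

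Across the 96 libraries these genes moved with 6 muscle genes outside the list. The Pearson correlation of log2 CPM with the mean log2 CPM of those 6 genes was 0.99 for wupA, 0.98 for Tm2, 0.97 for Tm1, 0.96 for Mlc2 and 0.92 for Mhc, all measured in the same libraries and given as a description. The unnamed LOC107071139 (0.97) and LOC107066399 (0.94) and the glycolytic Ald1 (0.81) also had values over 0.8, making 8 of the 100 genes. The mean muscle level was 9.40 ± 0.97 log2 CPM in queens, 9.47 ± 0.86 on day 3, 9.44 ± 0.83 on day 12 and 8.52 ± 0.78 in control workers (SD). With this level as a covariate, 21 members still passed between queens and control workers, where 19.7% of all genes passed (10% higher and 9.68% lower), but 8 were higher and 13 lower, and 12 of the 21 were called without the covariate too. The values of Mhc (-0.20), Tm1 (-0.046) and Tm2 (-0.20) then had the opposite sign, Ald1 and Nc73EF no longer passed, and blw (-0.59), ATPsynC (-0.41), ATPsynbeta (-0.28), Eno (-0.35) and Argk1 (-0.34) were lower in queens. Contractile genes that followed the covariate also passed as lower in queens in this fit. They were wupA (-0.27, adjusted p = 3.55e-05), Mlc2 (-0.35, adjusted p = 0.00684) and Tm2 (adjusted p = 0.0318). What the covariate removed from each gene was not tested. Between queens and queen removal individuals the covariate left all 30 calls in place and added 9, where 32% of all genes passed.

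After queen loss, no member passed in the edgeR test between queen removal individuals and control workers, where 0.278% of all genes tested did. At an unadjusted p under 0.05, 18 members were higher and 4 lower in queen removal individuals, 22 of the 100 against 15.4% of all genes. DESeq2 called 4 members, all higher in queen removal individuals, where it called 1.48% of all genes: Nc73EF and the unnamed LOC107069488, LOC107071139 and LOC107066399. The last of these had 491 to 7308 CPM in queen removal individuals with a median of 3030 CPM, against 134 to 2715 CPM in control workers with a median of 1639 CPM, a log2 difference of 1.14 ± 0.32 (edgeR adjusted p = 0.0726). Nc73EF had 1912 to 3874 CPM with a median of 2624 CPM in queen removal individuals, against 1996 to 2540 CPM with a median of 2250 CPM in control workers, a difference of 0.24 ± 0.07 (edgeR adjusted p = 0.0943). Of these 4 genes, LOC107071139, LOC107066399 and Nc73EF moved with the muscle level given above (Pearson 0.97, 0.94 and 0.79 over the 96 libraries), and LOC107069488 had a value of 0.17. With age and muscle level as covariates in edgeR, the differences from control workers were -0.06 for LOC107071139 (adjusted p = 0.853), 0.01 for LOC107066399 (adjusted p = 0.988), 0.02 for Nc73EF (adjusted p = 0.925) and 0.15 for LOC107069488 (adjusted p = 0.427). The covariate comes from the same libraries and follows LOC107071139, LOC107066399 and Nc73EF closely. Values near 0 for these genes are therefore largely built into that fit, and the cause of their differences was not tested. Taken by day, edgeR called no member between day 3 and control workers or between day 12 and control workers, where it called 0.0649% and 0.51% of all genes, and 28 and 17 members had an unadjusted p under 0.05.

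Queen removal individuals were older than control workers, the median age being 17 days over the 58 queen removal individuals and 11.5 days over the control workers. With age as a covariate, 15 members passed between queen removal individuals and control workers, 14 higher and 1 lower, where 2.46% of all genes passed (1.87% higher and 0.593% lower). The higher genes were 4 of the 5 contractile genes (Mlc2 by 1.18, Tm2 by 1.07, wupA by 1.04 and Tm1 by 0.94), the unnamed LOC107071139 and LOC107066399, and 8 energy genes, among them Argk1 (0.58), Ald1 (0.41), blw (0.37), ATPsynC (0.35) and ATPsynbeta (0.31), while sif was lower (-0.44). With nest as a random effect beside age, 5 members passed in limma, where 0.482% of all genes did. They were Argk1, Ald1, the pyruvate kinase-like LOC107073067, LOC107071139 and LOC107066399, with no contractile or ATP synthase gene among them. With the muscle level beside age no member passed in edgeR, where 0.0463% of all genes did. At an unadjusted p under 0.05 that last fit had 20 members higher and 8 lower.

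Between day 12 and day 3 after queen removal no member passed in edgeR, where 0.296% of all genes did, and none passed in DESeq2. At an unadjusted p under 0.05, 2 members were higher and 16 lower on day 12, 18 of the 100 against 10.5% of all genes. The unnamed LOC107068442 had the smallest p, with medians of 1825 CPM on day 12 and 2090 CPM on day 3 and a difference of -0.28 ± 0.08 (adjusted p = 0.131).

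Many members changed with age, most of them downward. The study picked queen removal individuals to span worker-like to queen-like states, and reports that queen-like state was correlated with age among them. The slopes below were not adjusted for ovarian development or dominance, so age and these traits cannot be told apart in them. Among the 58 queen removal individuals, with day after removal as a covariate, 22 of the 100 genes changed with age, 20 lower and 2 higher in older wasps, where 8.29% of all genes tested passed (5.06% lower and 3.23% higher). By rank, the share of genes lower with age was 20% over ranks 1 to 100, 15.2% over ranks 101 to 500, 10% over ranks 501 to 1000 and 5.58% over ranks 1001 to 5000. Of the 11 energy metabolism genes, 9 fell with age and none rose. Of the 10 transport and glia genes 4 fell, of the 5 contractile genes 2 fell, and of the 14 signalling and synapse genes none passed.

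The ATP synthase members fell together. ATPsynC had 1566 to 4820 CPM with a median of 2625 CPM in the 10 wasps of up to 10 days, 1126 to 2543 CPM with a median of 1556 CPM in the 25 wasps of 11 to 20 days, and 1108 to 1857 CPM with a median of 1346 CPM in the 23 wasps of 21 days or more. The youngest wasps were highest and spread furthest, while the older age classes overlapped over most of their range. The fitted change was -0.45 ± 0.05 log2 per 10 days (adjusted p = 1.55e-08). For blw the medians were 2269, 1345 and 1131 CPM in these age classes and the change was -0.45 ± 0.05 (adjusted p = 1.55e-08), and for ATPsynbeta they were 2211, 1549 and 1384 CPM with a change of -0.31 ± 0.05 (adjusted p = 1.38e-06). Within day after removal, the levels of these 3 genes correlated across the 58 libraries at Pearson 0.94 to 0.97, a description of libraries that share scaling and depth.

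The enzymes and carriers that supply and buffer ATP followed the same direction. Ant had medians of 9191, 6216 and 5903 CPM in the age classes from youngest to oldest, a change of -0.21 ± 0.05 per 10 days (adjusted p = 0.00118). Argk1 had medians of 4684, 3470 and 3120 CPM and a change of -0.36 ± 0.07 (adjusted p = 1.66e-04). Eno changed by -0.23 ± 0.04 (adjusted p = 5.80e-05), the glyceraldehyde-3-phosphate dehydrogenase gene LOC107067457 by -0.17 ± 0.04 (adjusted p = 0.00684), the pyruvate kinase-like LOC107073067 by -0.15 ± 0.04 (adjusted p = 0.00598) and the mitochondrial protein gene Chchd2 by -0.15 ± 0.04 (adjusted p = 0.00422). The energy genes that did not pass were Ald1 and Nc73EF.

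Outside energy metabolism, Gs2 had the smallest p. It had 2274 to 5124 CPM with a median of 3560 CPM in wasps of up to 10 days, 1511 to 3643 CPM with a median of 2094 CPM at 11 to 20 days, and 1019 to 2213 CPM with a median of 1847 CPM at 21 days or more. Every wasp of up to 10 days was above every wasp of 21 days or more. The change was -0.50 ± 0.05 per 10 days (adjusted p = 1.90e-10). LOC107067392 had medians of 1508, 1012 and 779 CPM over the same classes and changed by -0.45 ± 0.05 (adjusted p = 1.90e-10). The sodium pump subunit Atpalpha, which restores ion gradients after firing, changed by -0.30 ± 0.07 (adjusted p = 0.00144), Obp10, an odorant-binding protein-like carrier, by -0.26 ± 0.06 (adjusted p = 0.0027), apolpp by -0.26 ± 0.07 (adjusted p = 0.0141) and Mlc2 by -0.53 ± 0.14 (adjusted p = 0.0106). The members higher with age were Hasp, by 0.19 ± 0.06 (adjusted p = 0.0214), and a p62-like RNA helicase gene (LOC107068582), by 0.11 ± 0.03 (adjusted p = 0.0137).

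**Figure D4:**
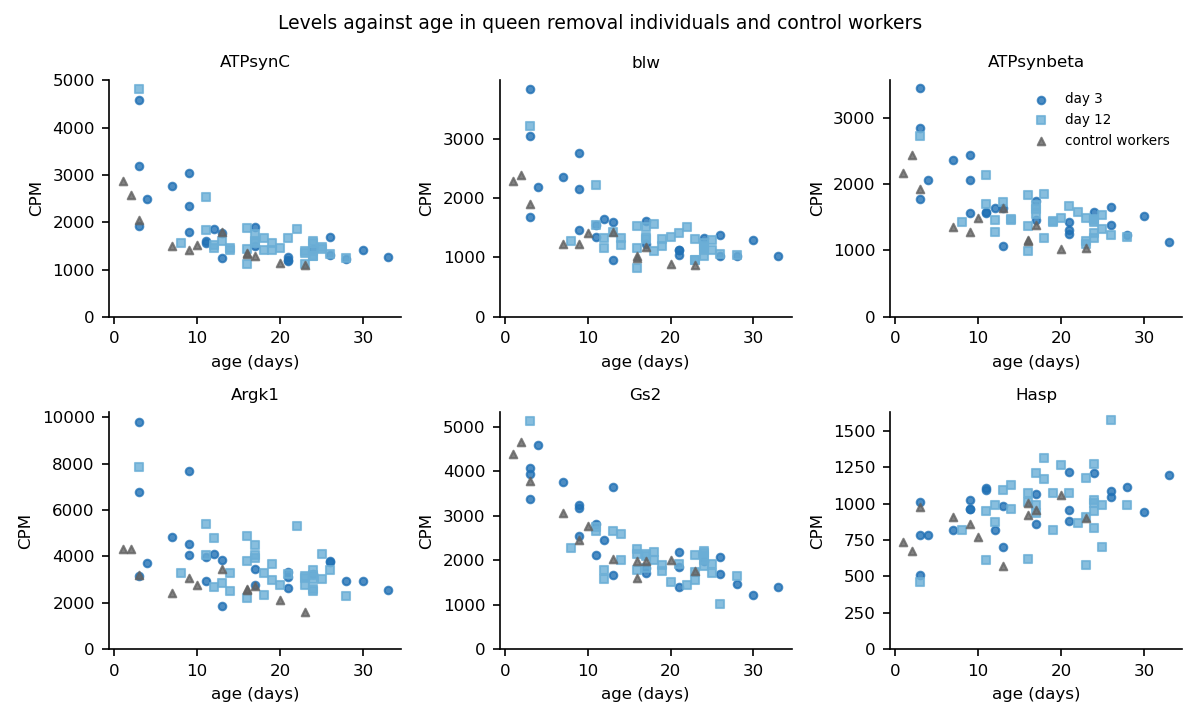
Levels of 6 of the 100 genes in CPM against age in days, in 24 day 3 and 34 day 12 queen removal individuals and 12 control workers; each point is a library. The highest levels of ATPsynC, blw, ATPsynbeta, Argk1 and Gs2 lay among wasps of up to 10 days, and the lowest levels of Hasp lay there too.

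Most calls did not hold without the youngest wasps, but the slopes changed by different amounts. Those of blw, ATPsynC and Argk1 were shallower and that of apolpp was steeper (-0.40 against -0.26 log2 per 10 days). The median slope of the 100 genes was -0.031 against -0.036. The smaller set also had fewer wasps and a narrower range of ages (11 to 33 days). Without the 10 wasps of up to 10 days, 4 members still passed over the remaining 48 wasps, all lower with age, where 0.584% of all genes passed: Gs2 (-0.35 per 10 days), apolpp (-0.40), LOC107067392 (-0.39) and the unnamed LOC107073935 (-0.32). All 22 genes kept their sign there, with blw at -0.24 (adjusted p = 0.0508), ATPsynC at -0.20 (adjusted p = 0.0698) and Argk1 at -0.16 (adjusted p = 0.45). Within the day 3 wasps alone 10 members passed, where 3.68% of all genes did, and within the day 12 wasps alone 9 passed, where 2.68% of all genes did, all lower with age in both. The 22 genes had the same sign in each day, and no member had an age slope that differed between the days (edgeR, 0.0649% of all genes called, 2 members at an unadjusted p under 0.05). With the muscle level as a covariate all 22 calls held and 2 were added, where 8.27% of all genes passed.

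In the 12 control workers, whose levels chose the genes, 7 members changed with age, 6 lower and 1 higher, where 0.63% of all genes passed (0.537% lower and 0.0926% higher). DESeq2 called 19 members, 16 lower and 3 higher, where it called 3.71% of all genes. Gs2 changed by -0.66 ± 0.09 per 10 days (adjusted p = 0.00531), blw by -0.63 ± 0.09 (adjusted p = 0.00542), ATPsynC by -0.56 ± 0.09 (adjusted p = 0.0142), ATPsynbeta by -0.50 ± 0.09 (adjusted p = 0.0257), LOC107067392 by -0.62 ± 0.12 (adjusted p = 0.031) and Eno by -0.48 ± 0.10 (adjusted p = 0.0487). The gene higher with age was LOC107065522, by 0.70 ± 0.12 (adjusted p = 0.0234). The 6 lower genes were also called in queen removal individuals, and all 22 genes called there had the same sign in control workers. The count depended on single workers: 2 members passed without replicate 4 or replicate 10, 3 without replicate 7 or replicate 9, and 4 without replicate 1 or replicate 6. No member had an age slope that differed between queen removal individuals and control workers (edgeR, 0.00926% of all genes called, 10 members at an unadjusted p under 0.05).

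The 3 ATP synthase members belong to a larger set of genes whose other members ranked below 100. Of 53 genes of oxidative phosphorylation, that is, subunits of the respiratory complexes and ATP synthase with cytochrome c, all 53 were lower with age in queen removal individuals, with a median of -0.28 log2 per 10 days against 0.00 for all genes tested, of which 5.06% were lower. Over wasps of more than 10 days 5 of the 53 passed, with a median of -0.10, where 0.584% of all genes passed, and in control workers 14 passed, all lower, where 0.537% of all genes were lower. In queens 44 were lower than in queen removal individuals, with a median of -0.31, where 14.5% of all genes were lower. With queen removal individuals of over 20 days alone 9 of the 53 were lower in queens, where 15.5% of all genes passed in either direction. Against control workers 11 were lower in queens, where 10.4% of all genes were lower, and 48 with the muscle level as a covariate, where 9.68% were. Without covariates, no gene of this list passed between queen removal individuals and control workers. With age as a covariate, the members blw (0.37), ATPsynC (0.35) and ATPsynbeta (0.31) were higher in queen removal individuals, where 1.87% of all genes were. With nest as a random effect beside age, none of these passed in limma (adjusted p = 0.0941 for blw, 0.127 for ATPsynC and 0.0866 for ATPsynbeta). With the muscle level beside age in edgeR, their differences were 0.13, 0.09 and 0.12 (adjusted p = 0.641, 0.758 and 0.602). Of 5 assembly factors of these complexes, which build them but are not part of them, 1 fell with age, and of 10 genes of glycolysis and energy buffering 6 fell.

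The 60 cytosolic ribosomal protein genes, none among the 100, did not share this direction. With age in queen removal individuals 27 rose and none fell, where 3.23% of all genes rose, and 1 passed over wasps of more than 10 days, where 0.584% of all genes did. In queens 28 were higher and none lower than in control workers, where 12.2% of all genes were higher. Against queen removal individuals 17 were higher and 5 lower in queens, where 15.6% of all genes were higher and 14.5% lower. These lists were written after values of the data had been seen.

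**Figure D5:**
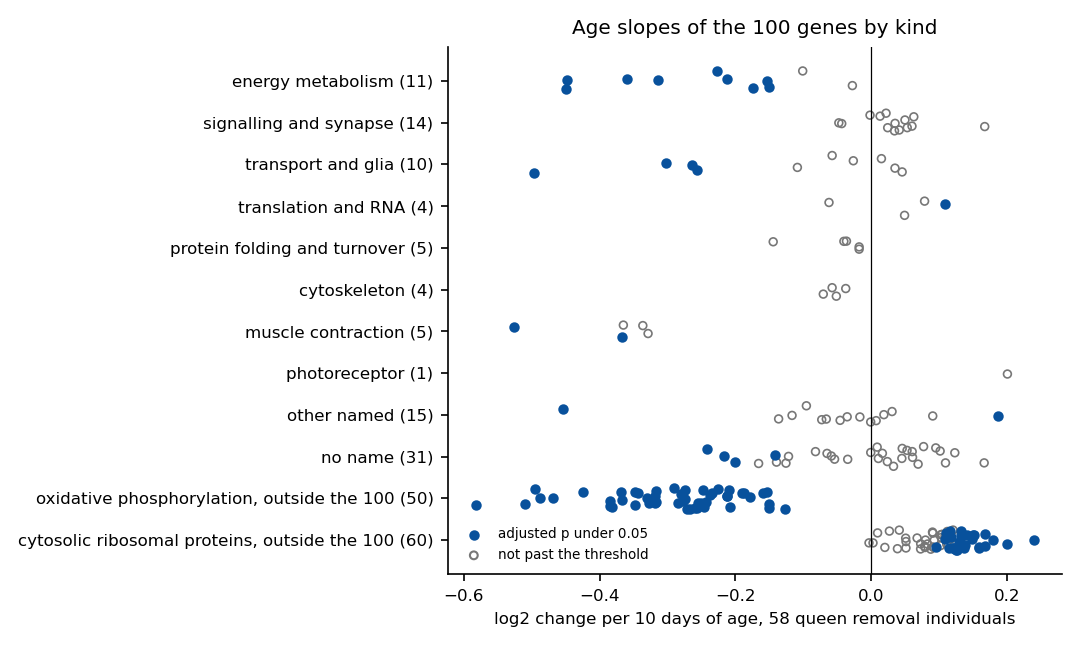
Change with age in 58 queen removal individuals, in log2 per 10 days, for the 100 genes by kind and for 50 further oxidative phosphorylation genes and 60 ribosomal protein genes outside the 100; each point is a gene, filled where it passed the edgeR test, and the vertical line marks 0. Of the 11 energy metabolism genes 9 passed below 0, and all 50 further oxidative phosphorylation genes lay below 0.

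In the comparisons with queens, the 31 members with no name showed no common direction. Against queen removal individuals 3 were higher and 3 lower in queens, where 15.6% of all genes were higher and 14.5% lower. Against control workers 3 were higher and 1 lower, where 12.2% of all genes were higher and 10.4% lower. With age in queen removal individuals 4 fell and none rose, where 5.06% of all genes fell and 3.23% rose, and the median slope of the 31 was 0.01. LOC107069488 had 1892 to 3521 CPM in queens with a median of 2432 CPM, and 1713 to 2262 CPM in control workers with a median of 2007 CPM, a difference of 0.29 ± 0.07 (adjusted p = 9.80e-04).

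The libraries held 7933671 to 18124755 counts in named genes, and queens had the lowest median depth. All 11 neuron markers, all 6 glia markers and all 6 muscle markers were above 0 in every library, as were 7 of 10 photoreceptor markers and 2 of 5 fat body and haemolymph markers. The summed CPM of the 6 muscle markers, the genes behind the muscle level above, was 1460 to 14878 in queens, 1179 to 11864 on day 3, 1325 to 18027 on day 12 and 593 to 4513 in control workers.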

How the data were processed

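The deposited table gives raw counts per gene for 96 brain libraries. As described by the authors, reads were cleared of ribosomal RNA with SortMeRNA, trimmed with Trimmomatic (version 0.36 in the submitters' processing notes), aligned with STAR (2.7) and assembled and counted with StringTie2; the use of strand in counting is not given in the sources used here. Entries repeating an ID (194 of 11335) were summed and 1 unnamed entry, holding 0.0216% to 0.0706% of counts, was left out, giving 11140 genes. A gene was tested if its counts in at least one group summed to more than 20 (10794 genes, including all 100 members).

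CPM used TMM factors over all named genes. Differences came from edgeR 4.0.16 (quasi-likelihood test, R 4.3.3), one fit of the 4 groups over all 96 libraries, or a slope per 10 days of age. P-values were adjusted by Benjamini-Hochberg over all genes tested, with a threshold of 0.05. SE is the log2 change over the square root of F. DESeq2 1.42.0, limma 3.58.1 (voom weights, wasps of a nest treated as correlated) and other scalings, filters and covariates were alternatives. The edgeR steps were tested on simulated data. P-values measure the spread between wasps, and wasps of one nest are not independent.

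Members were matched to the RefSeq gene table by gene ID (96 of 100), and product names were taken from the study's annotation tables. The members and lists were chosen with earlier results of these data known, and the functional kinds, symbol lists and marker lists were completed after values were seen. Named were the 10 genes of highest level, up to 5 called genes of smallest p in each direction of each comparison, up to 4 of each functional list, the 3 of lowest and highest coefficient of variation and the 3 at the edge. Mhc, Tm1, wupA, Eno, Atpalpha, Chchd2, LOC107073067, LOC107071139, LOC107068442 and LOC107073935 were named after their values were seen. Oxidative phosphorylation, glycolysis and ribosomal protein genes outside the 100 are given as lists.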

Additional observations from a re-analysis of the deposited data

How the results depend on the processing

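Shares of counts moved by less than 1 SD under the alternatives run. Counts of members called stayed within 1.5 times except as follows. Between queen removal individuals and control workers, edgeR called 0 and DESeq2 4 (1.48% of all genes). Age as a covariate gave 15 (2.46%), and age with nest as a random effect 5 (0.482%). The fit with a replicate block called 4, and leaving out single workers gave 0 to 2, with 2 without replicate 11. For the replicate block and the fits without single workers, the share of all genes called is not given here. Their counts therefore do not set the list apart from genes at large. With age in queen removal individuals, where 22 passed, day 3 alone gave 10 (3.68% of all genes), day 12 alone 9 (2.68%) and wasps over 10 days 4 (0.584%). Between queens and queen removal individuals, where 30 passed, queen removal individuals over 20 days gave 11 (15.5% of all genes). With age in control workers, where 7 passed, DESeq2 called 19 (3.71% of all genes), and leaving out single workers gave 2 to 8. Leaving out single control workers gave 18 to 21 calls between queens and control workers. With the muscle level as a covariate, Mhc (-0.20), Tm1 (-0.046) and Tm2 (-0.20) changed sign between queens and control workers. The cause of these changes was not tested. The settings on muscle level, on ages over 10 and over 20 days, on age with nest, and on leaving out control workers were chosen after the data were seen.

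Under every alternative, 2 of 22 calls with age in queen removal individuals, 10 of 30 between queens and queen removal individuals, 11 of 21 between queens and control workers and 2 of 7 with age in control workers still passed, and the direction was kept by 22, 30, 18 and 7 of them. Queens and control workers share replicate numbers only by name: over 12 pairs with the same number, deviations correlated at -0.162 to 0.349, 2 pairs were over 0.1, and 3 control workers correlated best with their own number. With the replicate block, 27 members passed between queens and control workers and 25 between queens and queen removal individuals. At an unadjusted p under 0.05 that fit had 34 and 38 of the 100 members, against 36% and 38.3% of all genes. An alternative by coding length was not run. Queens and control workers share 10 nests, and with nest as a random effect in limma 22 members passed between queens and control workers (16 higher and 6 lower in queens) and 34 between queens and queen removal individuals (16 higher and 18 lower). The share of all genes called in that nest fit is not given here, so these counts do not set the list apart from genes at large.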
